A study of Mus musculus with 12 samples.

Results

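Cytotoxic lymphocytes kill through granules, and this account follows 10 genes of that system through 12 mouse RNA-seq libraries. The genes were taken by symbol, and all 10 were found among the 32190 symbols of both deposited count tables. They are the granule proteases Gzma and Gzmb, the pore-forming protein Prf1, the granule membrane protein Nkg7, the receptors Ncr1, Klrd1, Klrk1 and Klrc1, the cytokine receptor chain Il2rb and the granule-docking protein Sytl2. The purpose was to set the genes in tumor-derived cells, where lymphocytes may be present, beside Gzmb in cultured dendritic cells (DCs).

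The libraries form 6 groups of 2. Late tumoral DCs (day 14) and early tumoral DCs (day 7) were sorted from WT mice that carried both the MC38 tumor, a mouse colon carcinoma line, and a Zbtb46-Tdtomato reporter. Zbtb46 is a transcription factor of conventional DCs. Bone marrow-derived DCs (BMDCs, labelled 9 days) came from mice labelled Pde5 knockout (Pde5-/-) or from WT mice, and each genotype was studied with 200 ng/ml lipopolysaccharide (LPS) for 12 h and without it. Pde5 degrades cGMP, and LPS activates Toll-like receptor 4. The labels give the cell type of every library as immune cells, and they do not say how the sort gate was set, whether replicates stand for different animals or cultures, or whether animals were pooled. The p-values therefore weigh the difference between groups only against the distance between replicate libraries, and that distance may be technical. Pde5a counts did not separate the genotype labels, so the genotype is given as labelled.

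A granzyme enters a target cell through pores made by perforin and cuts proteins there, which sets off apoptosis. Natural killer (NK) cells and CD8 T cells store both in lysosome-like granules. Surface receptors decide on their release: NKp46 (Ncr1) and NKG2D (Klrk1) activate, while CD94 (Klrd1) pairs with NKG2A (Klrc1) into an inhibitory receptor for the nonclassical class I molecule Qa-1. Interleukin 15, which myeloid cells present on their own alpha chain, keeps NK cells and memory CD8 T cells alive through the beta chain encoded by Il2rb. In mice, Gzmb can also be transcribed outside lymphocytes, for example in mast cells.

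All 10 genes are protein-coding and lie in the GRCm38 assembly (the same as mm10) as follows, by GENCODE. Gzma (ENSMUSG00000023132) lies on chromosome 13 from 113093825 to 113100981 and Gzmb (ENSMUSG00000015437) on chromosome 14 from 56258838 to 56262260. Prf1 (ENSMUSG00000037202) lies on chromosome 10 from 61297833 to 61304680 and Il2rb (ENSMUSG00000068227) on chromosome 15 from 78479256 to 78495271. Chromosome 7 holds Ncr1 (ENSMUSG00000062524) from 4337724 to 4345164, Nkg7 (ENSMUSG00000004612) from 43437073 to 43438249 and Sytl2 (ENSMUSG00000030616) from 90302252 to 90410719. The 3 lectin-like receptors neighbour each other on chromosome 6: Klrd1 (ENSMUSG00000030165) from 129591782 to 129598775, Klrk1 (ENSMUSG00000030149) from 129610323 to 129623864 and Klrc1 (ENSMUSG00000030167) from 129666015 to 129678973. In the RefSeq annotation Gzma overlaps Cdc20b, which had 0 counts in every library, and the other 9 genes overlapped no gene. Gzmb has close paralogs beside it on chromosome 14, Gzmc among them, and reads may be shared between them or lost.

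The start regions of 3 of the 10 genes, Ncr1, Gzma and Gzmb, are shown as examples. The letters TGTGGT, the core that Runx factors bind, stood in every promoter window found for the 10 genes. The windows run from 250 bases before to 50 bases after a start, and the sequences below are the last 180 bases before the start, 5′ to 3′ on the gene's strand, from RefSeq (GRCm38.p6). Capitals mark TGTGGT or its reverse complement ACCACA. The Ncr1 stretch is chr7:4337535-4337714 on the plus strand, the Gzma stretch chr13:113100982-113101161 and the Gzmb stretch chr14:56262335-56262514, both on the minus strand.
Ncr1: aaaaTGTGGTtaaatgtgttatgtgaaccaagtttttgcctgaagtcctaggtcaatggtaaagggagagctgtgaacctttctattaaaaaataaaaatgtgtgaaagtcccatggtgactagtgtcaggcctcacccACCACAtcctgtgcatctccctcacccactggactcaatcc
Gzma: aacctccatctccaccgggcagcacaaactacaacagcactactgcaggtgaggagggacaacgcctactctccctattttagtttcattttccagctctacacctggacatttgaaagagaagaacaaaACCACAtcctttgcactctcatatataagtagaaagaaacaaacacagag
Gzmb: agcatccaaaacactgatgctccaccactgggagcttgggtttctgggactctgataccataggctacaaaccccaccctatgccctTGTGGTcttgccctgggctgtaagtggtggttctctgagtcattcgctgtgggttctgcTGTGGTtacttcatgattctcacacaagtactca

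Windows were at hand for 7 of the 10 genes, 8 windows in all since Ncr1 has 2, and Klrd1, Il2rb and Sytl2 had none. On either strand TGTGGT stood in the windows of 7 of 7 genes, against 16.8% of 32851 mouse promoter windows. The T-box letters AGGTGT, bound by T-bet and Eomes, stood in 3 of 7 (Gzma, Nkg7 and Prf1), against 13.7%. The AP-1 letters TGANTCA stood in 2 of 7 (Gzmb and Klrk1), against 7.81%, and an interferon-stimulated response element in Gzma alone, against 3.44%. A loose form of the NF-kB motif stood in 4 of 7 (Gzmb, Ncr1, Nkg7 and Prf1), against 50.8%, and some of its matches overlapped a Runx or T-box match. These matches describe letters and say nothing of binding.

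The libraries held 14153700 to 19293261 counts in the tumoral DCs and 16122941 to 19684338 in the BMDCs. CPM below are counts scaled by trimmed-mean (TMM) library sizes, done separately in each table, so levels set across the 2 tables are only side by side and were not tested. A count of 3, the limit that a count of 0 allows, corresponds to 0.140 to 0.227 CPM. The conventional DC markers (10 genes) summed to 12501 to 19329 CPM in the tumoral libraries and 7719 to 14439 CPM in the BMDCs, with Cd209a at 0 in both LPS WT libraries. The tumoral libraries also held 4149 to 8349 CPM of 6 macrophage markers, against 468 to 1143 CPM in the BMDCs. T cell markers (14 genes) summed to 99.6 to 722 CPM and NK cell markers (6 genes) to 17.2 to 106 CPM in the tumoral libraries. In BMDCs the 14 T cell markers summed to 32.0 to 54.1 CPM (591 to 962 counts), of which the 3 CD3 chains together had 17 to 46 counts. The NK cell markers were near the limit there, at 0.687 to 1.69 CPM in sum, with Klra8 at 0 in all 8 libraries.

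**Figure D1:**
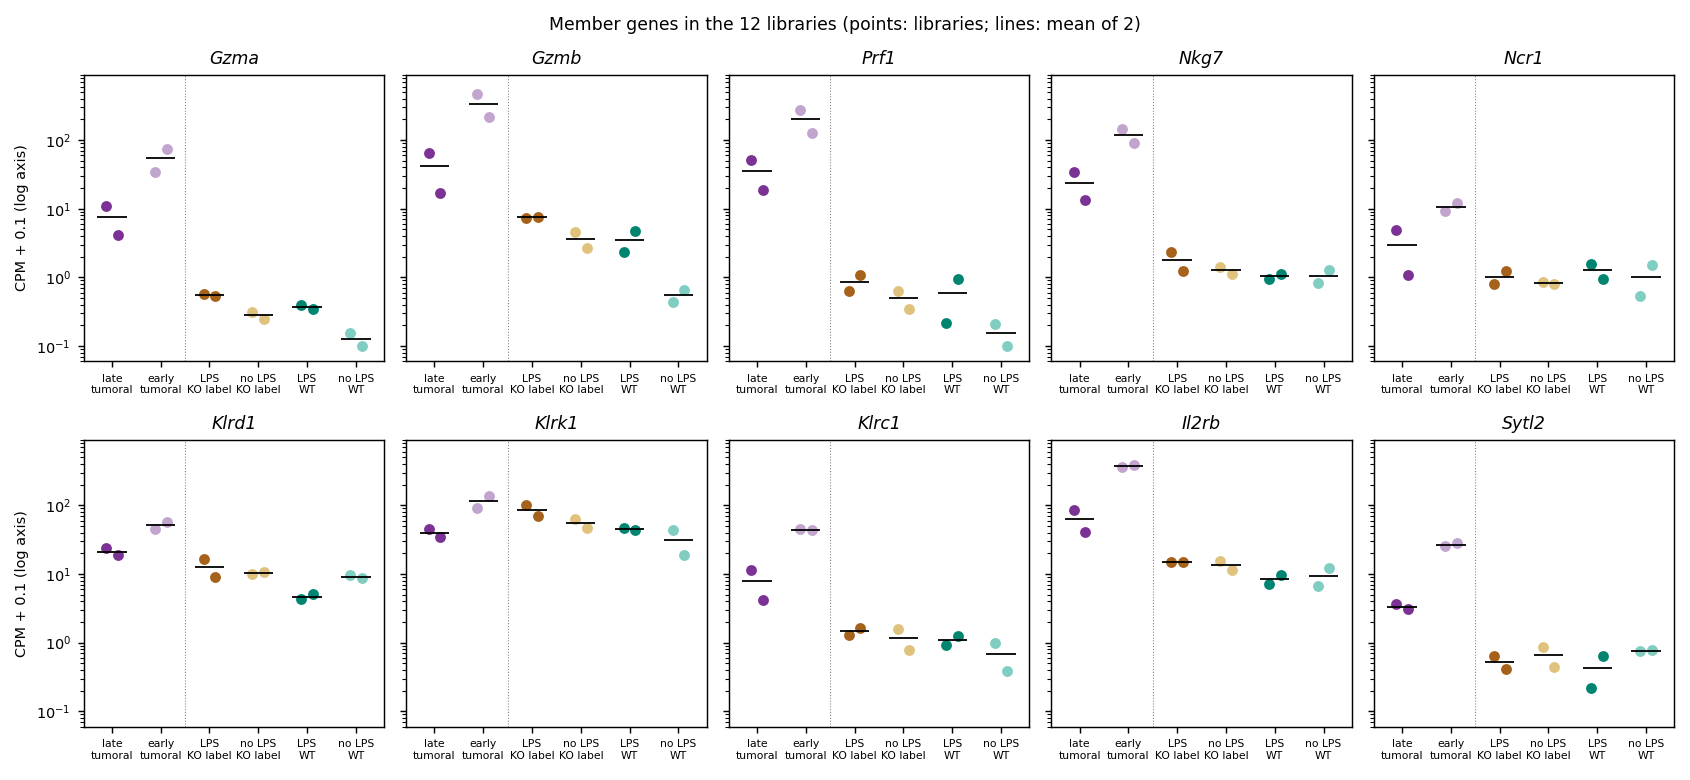
CPM + 0.1 on a log axis for each of the 10 genes in the 12 libraries (points) with the mean of the 2 libraries of a group (lines). The dotted line separates the tumoral from the BMDC table, which were scaled separately. Early tumoral libraries lie above late ones for every gene, and BMDC libraries lie below all tumoral ones except for Klrk1 (18.9 to 100 CPM in BMDCs) and for Ncr1, where late replicate 2 (0.984 CPM) lies within the BMDC range.

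Late tumoral DCs were set against early ones to ask how these cells differ as the tumor progresses. Counts of all 10 genes were lower in both late libraries than in both early ones, by a median log2 fold change of -2.51, against 0.01 over the 13040 genes tested. In bulk samples, fewer cells of a type and less RNA per cell cannot be told apart. Sytl2 fell and was the 1 gene of the 10 to pass an adjusted p of 0.05 (edgeR quasi-likelihood test, Benjamini-Hochberg over all genes), where 3 genes passed in all, or 0.0230% of those tested. The unadjusted p was under 0.05 and the fold change below 0 for 10 of 10, as for 7.12% of all genes. The late libraries lay below the early ones without overlap for 10 of 10, as for 22.2% of all genes.

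Among the granule effectors, Gzmb had 65.6 and 16.9 CPM in the late libraries, against 461 and 217 CPM in the early ones. Its log2 fold change of -3.04 (SE 0.80) did not pass (adjusted p = 0.340). Both libraries of either stage differed from each other by more than 2-fold.

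Prf1, whose product forms the pore, had 51.8 and 18.7 CPM in the late libraries, against 273 and 128 CPM in the early ones (log2 fold change -2.51, SE 0.61, adjusted p = 0.285). Gzma, a trypsin-like granzyme, had 10.8 and 4.09 CPM in the late libraries, against 34.6 and 73.6 CPM in the early ones (-2.85, SE 0.57, adjusted p = 0.199). Nkg7, needed in mice for full granule release, had 34.0 and 13.1 CPM in the late libraries, against 143 and 91.6 CPM in the early ones (-2.31, SE 0.49, adjusted p = 0.205). The groups did not overlap for any of these, and late replicate 2 was the lowest library each time.

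The early replicates did not rank alike for all genes: Gzmb, Prf1 and Nkg7 were higher in early replicate 1, by 2.12, 2.14 and 1.56 times, and Gzma was lower there, at 0.471 times the level of replicate 2. T cell and NK cell markers split in the same libraries. In early replicate 1, 13 of 14 T cell markers were higher than in replicate 2 (median ratio 1.61), and 0 of 6 NK cell markers were (median ratio 0.640). A low ratio was not particular to NK cell markers. The median was 0.689 for conventional DC, 0.721 for plasmacytoid DC, 0.477 for mast cell and basophil, and 0.388 for neutrophil markers. It was 0.777 for B cell markers, 0.426 for gamma-delta T and innate lymphoid cell markers, and 1.22 for macrophage markers.

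Of the 4 receptors, Klrd1 and Klrk1 had the smallest fold changes. Klrd1 had 23.5 and 18.6 CPM in the late libraries, against 45.4 and 57.4 CPM in the early ones (log2 fold change -1.29, SE 0.25, adjusted p = 0.125). Klrk1 had 45.7 and 34.4 CPM in the late libraries, against 91.1 and 139 CPM in the early ones (-1.52, SE 0.28, adjusted p = 0.113). Whether these fold changes differ from those of the effectors was not tested.

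Klrc1 had 11.3 and 4.09 CPM in the late libraries, against 44.6 and 43.8 CPM in the early ones, a log2 fold change of -2.51 (SE 0.46, adjusted p = 0.129), so it lay further from 0 than its partner Klrd1. Ncr1, the receptor most restricted to NK cells and related innate lymphocytes, was the lowest of the 4 receptors in counts, with 76 and 13 in the late libraries and 195 and 201 in the early ones. Its log2 fold change was -1.85 (SE 0.68, adjusted p = 0.401).

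Il2rb, the shared receptor chain for interleukins 2 and 15, had 86.8 and 40.3 CPM in the late libraries, against 359 and 389 CPM in the early ones. Its log2 fold change of -2.56 (SE 0.38) missed the threshold (adjusted p = 0.0844). Sytl2, which tethers granules to the membrane through Rab27a, had 3.55 and 2.95 CPM in the late libraries, against 25.7 and 27.8 CPM in the early ones. It fell by 3.04 on the log2 scale (SE 0.31, adjusted p = 0.0444), and the replicates of both stages lay closer together than those of Gzmb.

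How many of the 10 pass depended on single libraries and on the tool. The same test gave 9 members called without early replicate 1, 8 without early replicate 2 and 0 without either late replicate, and the genes called in all then numbered 1063, 572, 0 and 0. DESeq2 called 8 of the 10 among 311 genes and limma-voom called 1 among 24. The fold change was below 0 for all 10 genes in each of the 12 other settings tried.

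T cell and NK cell markers were lower at the late stage along with the 10 genes. All 14 T cell markers had a log2 fold change below 0 (median -2.34), 13 of them with an unadjusted p under 0.05, and Lck, the kinase next to the T cell receptor, fell to 16.8 ± 2.27 CPM in late libraries, against 79.96 ± 6.59 CPM in early ones (SD, n = 2; edgeR adjusted p = 0.0444). All 6 NK cell markers were below 0 as well (median -2.07), with 0 passing after adjustment and 6 with an unadjusted p under 0.05. The conventional DC markers had a median of -0.24 and the macrophage markers one of 0.41, with 0 of 10 and 0 of 6 passing (1 and 0 at an unadjusted p under 0.05). Neutrophil markers (6 genes) summed to 167 CPM in late replicate 1 but to 9.99 CPM in late replicate 2, against 14.4 and 45.3 CPM in the early libraries, and 0 of 3 tested passed (0 at an unadjusted p under 0.05). Mast cell and basophil markers were below 0 for 7 of 7 tested (median -1.01, 0 passing and 1 at an unadjusted p under 0.05). Their sums overlapped, at 74.4 to 90.5 CPM in late and 69.2 to 193 CPM in early libraries, whereas the proteases Mcpt4, Cma1 and Tpsb2 summed to 4.62 and 12.3 CPM in late and 13.1 and 30.2 CPM in early libraries. The 1 tested marker of gamma-delta T and innate lymphoid cells was at -2.82 and 2 of 2 tested B cell markers were below 0, with 0 passing in both lists (1 and 0 at an unadjusted p under 0.05). The summed T cell markers came to 99.6 to 154 CPM in late and 479 to 722 CPM in early libraries, and the summed NK cell markers to 17.2 to 34.1 CPM in late and 68.3 to 106 CPM in early libraries. The part of all these cells in the lower levels of the 10 genes was not tested.

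**Figure D2:**
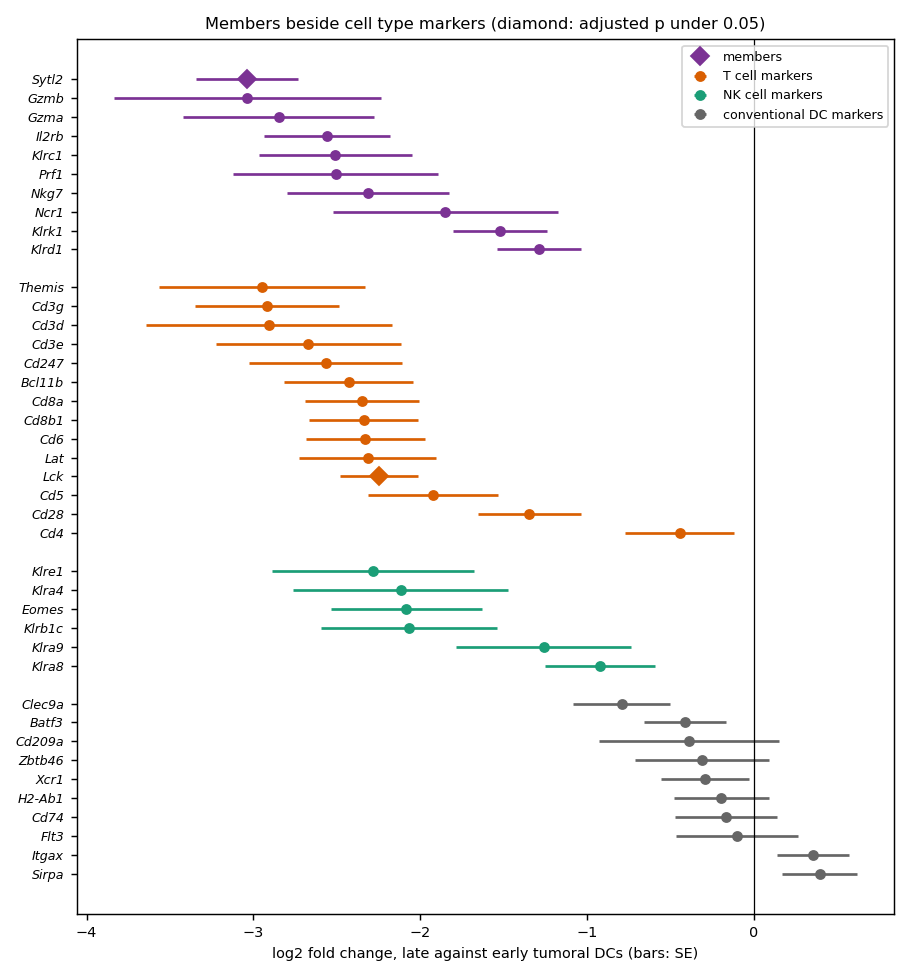
Log2 fold change of late over early tumoral DCs (points) with its SE (bars) for the 10 genes and for markers of T cells, NK cells and conventional DCs. Diamonds mark an adjusted p under 0.05, which Sytl2 and Lck have, and all T and NK cell markers lie left of 0 as the 10 genes do, while conventional DC markers lie between -0.79 and 0.40.

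Set against the CD3 chains of the same library, some of the 10 genes varied little over the 4 tumoral libraries and others varied more. This denominator (the summed counts of Cd3d, Cd3e and Cd3g) was chosen after values had been seen, and the ratios are a description. Gzmb had 2.40 and 1.69 counts per CD3 chain count in the late libraries and 2.72 and 2.21 in the early ones, a spread of 1.61 times over a range of CD3 counts from 132 to 3637. Prf1 spread by 1.45 times (1.30 to 1.89) and Nkg7 by 1.56 times (0.840 to 1.31). Both ratios were higher in the late than in the early libraries without overlap. Prf1 had 1.89 and 1.87 late and 1.61 and 1.30 early, and Nkg7 1.24 and 1.31 late and 0.840 and 0.933 early. By contrast Klrd1 spread by 6.93 times and Klrk1 by 6.40 times, both higher late without overlap and highest in late replicate 2. Gzma spread by 3.67 times and Ncr1 by 3.28 times, and both overlapped between stages. For Gzma the late ratios (0.396 and 0.409) lay between the early ones (0.204 and 0.749).

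Per count of the 6 NK cell markers the order changed. Klrk1 then spread by 1.53 times (1.30 to 2.00) and Klrd1 by 2.00 times (0.539 to 1.08), whereas Gzmb spread by 6.86 times (0.982 to 6.74). In these 4 libraries Gzmb, Prf1 and Nkg7 thus spread less per CD3 chain count than per NK marker count. So did Klrc1 (1.70 against 2.74 times), Il2rb (1.90 against 2.24) and Sytl2 (2.28 against 3.62). Klrk1 and Klrd1 spread less per NK marker count, as did Gzma (2.91 against 3.67 times) and Ncr1 (2.47 against 3.28). Effectors and receptors were therefore found on both sides. The libraries share 1 sort design and the ratios share their denominators.

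**Figure D3:**
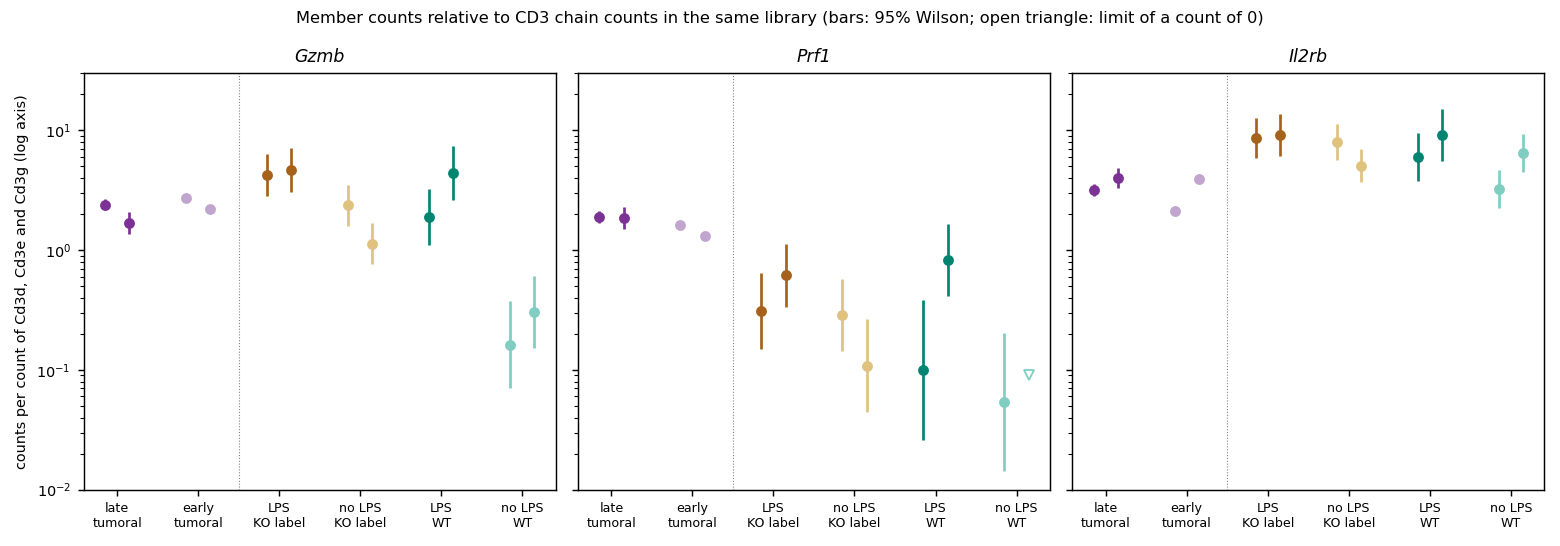
Counts of Gzmb, Prf1 and Il2rb per count of the 3 CD3 chains in each library (log axis), with 95% Wilson intervals for counting error, where bars shorter than the point are hidden by it. An open triangle is the limit that a count of 0 allows. Gzmb lies between 1.69 and 2.72 in the tumoral libraries and between 0.162 and 4.65 in the BMDCs.

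The wider cytotoxic system was examined through gene lists chosen for the pathway. Of 21 other NK receptors and adaptors, 1 fell, 20 did not pass and the median log2 fold change was -1.72, with 18 of 21 lower without overlap, as for 22.2% of all genes. This list holds 5 of the 6 NK cell markers above (Klrb1c, Klre1, Klra8, Klra4 and Klra9). The gene that fell was Cd226, an activating receptor that binds Pvr and Nectin2, with 5.81 ± 0.830 CPM in late and 40.8 ± 7.08 CPM in early libraries (SD, n = 2; log2 fold change -2.81, SE 0.29, adjusted p = 0.0444). Klrg1, an inhibitory receptor of late effector cells, had 1.11 ± 0.495 CPM in late and 8.68 ± 0.276 CPM in early libraries (adjusted p = 0.0861).

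Of 13 tested genes among the other granzymes and granule contents, 0 passed (edgeR; 5 had an unadjusted p under 0.05, all lower), with a median of -2.30. Ctsw, a cathepsin of cytotoxic cells, had 8.50 ± 4.2 CPM in late and 48.9 ± 3.28 CPM in early libraries (adjusted p = 0.0641). Gzmk had 0.993 ± 0.655 CPM in late and 13.8 ± 9.95 CPM in early libraries (adjusted p = 0.157). Gzmc differed less, with 37.4 ± 31.0 CPM in late and 71.9 ± 4.38 CPM in early libraries.

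Among 7 transcription factors of cytotoxic lymphocytes 0 passed, though 3 had an unadjusted p under 0.05, all lower. These were Tox, Tbx21 and Eomes, with log2 fold changes of -2.37, -2.61 and -2.08, and Eomes is also among the NK cell markers. The other 3 groups lay nearer to 0: the median was -0.27 for 10 granule release genes, -0.20 for 7 ligands of NK receptors and -0.33 for 8 genes of the IL-2 and IL-15 system, with 0 passing in each (4, 1 and 1 at an unadjusted p under 0.05). Among 5 serpins that inhibit granzymes the median was -0.78 and 0 passed, with 2 at an unadjusted p under 0.05 (Serpinb9b and Serpinb9, both lower).

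In BMDCs the order of the 10 genes was a different one. Per kilobase of exon, Klrk1 and Klrd1 had the highest levels in every BMDC group, at 4.36 to 11.9 and 3.55 to 9.85 CPM per kb as group means, whereas Gzmb and Nkg7 had them in both tumoral groups. In late tumoral libraries Gzmb averaged 28.7 and Nkg7 25.7 CPM per kb, and in early ones 236 and 128 CPM per kb. Within the late group the libraries of neighbouring ranks overlapped widely, since the SD of Gzmb alone was 34.5 CPM around a mean of 41.3 CPM.

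Klrk1 and Klrd1 were detected in BMDCs well above the NK cell markers. Klrk1 had 336 to 1684 counts and Klrd1 70 to 272, against 11 to 30 counts for the 6 NK cell markers together. Klrk1 thus had 11.2 to 120 counts per NK marker count in BMDCs and 1.30 to 2.00 in tumoral libraries. Il2rb had 120 to 281 counts in BMDCs, and the remaining genes were low: Gzma had 0 to 8 counts, Prf1 0 to 16, Sytl2 2 to 14, Ncr1 8 to 25, Klrc1 5 to 27 and Nkg7 13 to 38. Gzma had too few counts for a test there, which left 9 genes.

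LPS against no stimulation in WT BMDCs asked how maturation changes these genes. Of the 9 tested, 1 rose and 1 fell, where 37.6% of the 13072 genes tested passed (20% higher and 17.6% lower), so the count is below the share over all genes. With library size alone as scaling the split over all genes was 1689 higher and 3728 lower, against 2609 and 2301 with TMM. The calls numbered 1700 higher and 1215 lower without unstimulated WT replicate 2, 1617 and 1059 without LPS WT replicate 1, and 1826 and 1400 without LPS WT replicate 2. The gene that rose was Gzmb and the gene that fell was Klrd1. The median over the 9 was 0.34, against -0.02 over all genes.

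Gzmb had 2.26 and 4.57 CPM (38 and 75 counts) in the LPS WT libraries, against 0.331 and 0.562 CPM (6 and 10 counts) in the unstimulated WT ones. It rose by 2.91 on the log2 scale (SE 0.51, edgeR adjusted p = 0.00311) and passed in all 13 alternatives, with adjusted p from 2.69e-06 to 0.0187. Its paralog and neighbour Gzmc rose too, with 3.77 ± 0.795 CPM in LPS WT and 0.864 ± 0.050 CPM in unstimulated WT libraries (log2 fold change 2.11, SE 0.38, adjusted p = 0.00335).

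Counts of the CD3 chains and NK cell markers were not higher with LPS. The CD3 chains had 20 and 17 counts in the LPS WT libraries and 37 and 33 in the unstimulated WT ones. Gzmb per CD3 chain count was 1.90 and 4.41 with LPS and 0.162 and 0.303 without it. The 95% intervals of single libraries had a lowest bound of 1.11 with LPS and a highest bound of 0.606 without. These intervals cover counting error only and leave out the spread between replicate libraries, so they are no test of LPS. NK cell markers had 19 and 16 counts with LPS and 19 and 30 without. Of 11 tested T cell markers 2 rose (Cd247 and Cd8a, by 2.63 and 1.79 on the log2 scale) and 2 fell (Cd28 and Bcl11b). The 3 markers of gamma-delta T cells and innate lymphoid cells in the table summed to 22.1 to 22.7 CPM with LPS and 8.78 to 9.78 CPM without it, and 1 rose (Il23r, by 1.60). The 8 plasmacytoid DC markers summed to 447 to 499 CPM with LPS and 170 to 263 CPM without it, and of 7 tested Bst2 rose by 1.88 and Siglech fell by 2.69. The part of these cells in the rise of Gzmb was not tested.

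Some mast cell proteases were absent or nearly so: Mcpt4, Cma1 and Tpsab1 had 0 counts in all 8 BMDC libraries, and Mcpt4, Cma1 and Tpsb2 together had 0 to 2. These 4 proteases were singled out after their values were seen. The same list holds Cpa3 and Mcpt8, which had counts above 0 in all 8 BMDC libraries. Of 6 tested mast cell and basophil markers, 2 rose (Hdc and Kit, by 3.14 and 0.72), and the whole list of 13 summed to 574 to 640 CPM in LPS WT and 332 to 414 CPM in unstimulated WT libraries. The part of Hdc- or Kit-expressing cells in the rise of Gzmb was not tested.

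Klrd1 had 4.15 and 4.94 CPM in the LPS WT libraries, against 9.50 and 8.60 CPM in the unstimulated WT ones. It fell by 0.99 (SE 0.28, adjusted p = 0.0220), and the groups did not overlap. The call was lost when any of the 4 libraries was left out (adjusted p = 0.0772 and 0.0576 without unstimulated WT replicates 1 and 2, 0.126 and 0.0607 without LPS WT replicates 1 and 2), while the log2 fold change stayed between -1.12 and -0.87.

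Prf1 did not pass. It had 2 and 14 counts in the LPS WT libraries, against 2 and 0 in the unstimulated WT ones, a ratio of 8.64 with an exact 95% interval of 2.03 to 77.4 for counting error only. The edgeR adjusted p was 0.106. Gzma, untested, had 5 and 4 counts with LPS and 1 and 0 without it (ratio 9.72, interval 1.35 to 426). The other 6 tested genes did not pass, and their log2 fold changes ran from -0.996 (Sytl2) to 0.76 (Klrc1).

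Partners of the 10 genes changed under LPS in WT BMDCs. Of 8 tested genes of the IL-2 and IL-15 system 7 rose and 1 did not pass (median 1.04). Il2ra, the alpha chain that raises affinity for IL-2, had 242 ± 27.5 CPM in LPS WT and 31.4 ± 8.79 CPM in unstimulated WT libraries (log2 fold change 2.95, SE 0.26, adjusted p = 0.000419). Il2rg, the common gamma chain, rose by 1.01, while Il2rb itself had 8.32 ± 1.69 CPM with LPS and 9.36 ± 3.86 CPM without it (-0.17, adjusted p = 0.677).

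Of 5 granzyme-inhibiting serpins 3 rose and 2 did not pass. Serpinb9, the intracellular inhibitor of granzyme B, had 765 ± 36.7 CPM in LPS WT and 505 ± 137 CPM in unstimulated WT libraries, and rose by 0.60 (SE 0.17, adjusted p = 0.0230). Serpinb9b rose by 1.99 and Serpinb6b by 0.80. Of 10 granule release genes 5 rose, 1 fell and 4 did not pass. Those with the smallest p were Rab27a, Stx11 and Unc13d, which rose by 0.79, 1.18 and 0.82 and whose products bring granules to the membrane and prime their fusion.

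Of 8 ligands of NK receptors 3 rose and 5 did not pass: Pvr and Nectin2, the ligands of Cd226, rose by 1.45 and 1.46, and H2-T23, which encodes the Qa-1 recognised by Klrd1 with Klrc1, rose by 1.00. Of 10 other NK receptors and adaptors 3 fell and 0 rose: the signalling adaptor Tyrobp by 0.93, Cd244a by 1.36 and Cd226 by 2.51. Of 6 transcription factors 4 rose (Nfil3, Prdm1, Runx3 and Tbx21, by 1.71, 1.29, 1.32 and 2.16) and 2 did not pass. Of 6 tested granzymes and granule contents 3 rose, Gzmc with the proteoglycan Srgn (by 1.55) and the cystatin Cst7 (by 2.00). In the same comparison 4 of 6 macrophage markers rose and 1 fell, and 5 of 10 conventional DC markers fell and 2 rose, Zbtb46 among them, and 3 of 4 neutrophil markers fell. Their part in these results was not tested.

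LPS against no stimulation in BMDCs labelled Pde5 knockout gave 0 of the 9 genes past the threshold with edgeR, as with DESeq2 and limma-voom, and 1 (Gzmb) at an unadjusted p under 0.05. Over all genes edgeR called 0 of 13072 (21.4% at an unadjusted p under 0.05), DESeq2 793 and limma-voom 0. The same edgeR test called 219 genes higher and 396 lower without unstimulated knockout replicate 1, and 147 higher and 174 lower with the replicate number as a block. Without LPS knockout replicate 2 it called 9 higher and 22 lower. Gzmb had 7.25 and 7.56 CPM in the LPS libraries labelled knockout, against 4.50 and 2.57 CPM in the unstimulated ones. The groups did not overlap, and the log2 fold change was 1.07 (SE 0.38, adjusted p = 0.165). Klrd1 had 16.2 and 9.06 CPM in LPS libraries labelled knockout and 9.80 and 10.4 CPM in unstimulated ones, which overlap. The median over the 9 genes was 0.36, against -0.02 over all genes. In every pathway and marker list 0 genes passed here with edgeR.

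Libraries labelled Pde5 knockout were compared with WT libraries to ask what the genotype changes. Without LPS, 1 of the 9 genes passed, where 18.0% of all genes did (12.0% higher and 5.98% lower). The split over all genes was 1282 higher and 1301 lower with library size alone, against 1575 and 782 with TMM. The calls numbered 527 higher and 66 lower without unstimulated knockout replicate 1, and 737 and 124 without unstimulated WT replicate 2. It was Gzmb, with 4.50 and 2.57 CPM (83 and 52 counts) in the libraries labelled knockout, against 0.331 and 0.562 CPM in the WT ones, a rise of 2.96 on the log2 scale (SE 0.50, edgeR adjusted p = 0.00660). It passed in all 13 alternatives, with adjusted p from 4.01e-06 to 0.0416.

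The CD3 chains had 35 and 46 counts in the unstimulated libraries labelled knockout and 37 and 33 in the WT ones, and the NK cell markers 25 and 20 against 19 and 30. Gzmb per CD3 chain count was 2.37 and 1.13 in the libraries labelled knockout and 0.162 and 0.303 in WT. The intervals of the former were 1.60 to 3.51 and 0.762 to 1.68, for counting error only. Other marker lists held called genes, where 12.0% of all genes were higher with the label and 5.98% lower. The mast cell and basophil markers summed to 429 to 467 CPM in the libraries labelled knockout and 332 to 414 CPM in WT, and of 6 tested 1 rose (Hdc, by 4.15). The gamma-delta T cell and innate lymphoid markers summed to 14.1 to 17.3 CPM in the libraries labelled knockout and 8.78 to 9.78 CPM in WT, and of 3 tested 1 rose (Il23r, by 1.07). Of 7 plasmacytoid DC markers 1 rose (Bst2, by 1.51), of 4 neutrophil markers 2 fell (S100a8 and S100a9), and of 11 T cell markers Cd247 rose by 2.04 and Bcl11b fell by 2.08. The part of these cells in the rise of Gzmb was not tested. Gzmc rose by 2.42 (SE 0.37, adjusted p = 0.00435). Prf1 had 10 and 5 counts in the libraries labelled knockout, against 2 and 0 in WT (ratio 6.95, exact 95% interval 1.62 to 62.7, adjusted p = 0.192).

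Klrk1 had 63.4 and 46.9 CPM in the unstimulated libraries labelled knockout, against 43.7 and 18.9 CPM in WT, with an adjusted p of 0.177 (log2 fold change 0.82, SE 0.38). It passed with DESeq2, with the replicate number as a block and without unstimulated WT replicate 1, which brought the count of genes called to 2 each time. The remaining 6 tested genes had log2 fold changes from -0.35 (Ncr1) to 0.87 (Klrc1).

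The pathway lists in the unstimulated libraries labelled knockout held 6 risen genes of 8 in the IL-2 and IL-15 system, where Il2ra had 190 ± 60.7 CPM against 31.4 ± 8.79 CPM in WT (log2 fold change 2.59, SE 0.26, adjusted p = 0.00143). Il15ra, which presents IL-15, rose by 1.26 and Jak3, the kinase on the common gamma chain, by 1.20. Over all genes tested in this comparison 12.0% rose and 5.98% fell. Of 6 transcription factors 4 rose (Nfil3, Runx3, Prdm1 and Tbx21) and Id2 fell by 0.51. Of 10 granule release genes 3 rose (Rab27a, Stx11 and Unc13d) and Lyst fell. Of 8 ligands 3 rose (Pvr, Nectin2 and H2-T23), of 5 serpins 2 rose (Serpinb6b and Serpinb9b), and of 10 other receptors and adaptors 3 fell (Tyrobp, Cd244a and Cd226). Macrophage markers (2 of 6 higher) and conventional DC markers (1 of 10 higher, 2 lower) also changed, and their part in these results was not tested. This comparison and that of LPS in WT share the unstimulated WT libraries.

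With LPS, 0 of the 9 genes passed between libraries labelled knockout and WT with edgeR and limma-voom, 1 with DESeq2 (Klrd1), and 4 were higher at an unadjusted p under 0.05, as were 5.33% of all genes. Over all genes edgeR called 0 of 13072 (10.2% at an unadjusted p under 0.05), DESeq2 150 and limma-voom 0. Without LPS knockout replicate 2 edgeR called 51 genes higher and 14 lower. The 4 were Klrd1, Il2rb, Gzmb and Klrk1. Klrd1 had 16.2 and 9.06 CPM in the LPS libraries labelled knockout, against 4.15 and 4.94 CPM in the LPS WT ones (log2 fold change 1.47, SE 0.27, adjusted p = 0.186). Without LPS knockout replicate 2 it passed (adjusted p = 0.0221), and over the 13 alternatives its adjusted p ran from 0.000696 to 0.911.

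Gzmb had 7.25 and 7.56 CPM in LPS libraries labelled knockout, against 2.26 and 4.57 CPM in LPS WT ones (1.12, SE 0.39, adjusted p = 0.401). Il2rb had 14.98 and 14.93 CPM in LPS libraries labelled knockout, against 7.12 and 9.51 CPM in LPS WT ones (0.85, SE 0.29, adjusted p = 0.396). Klrk1 had 100 and 70.3 CPM in LPS libraries labelled knockout, against 47.0 and 44.1 CPM in LPS WT ones (0.90, SE 0.37, adjusted p = 0.487). Libraries did not overlap for 6 of the 9 genes, all higher in those labelled knockout, as for 22.6% of all genes. In every pathway and marker list 0 genes passed with edgeR.

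**Figure D4:**
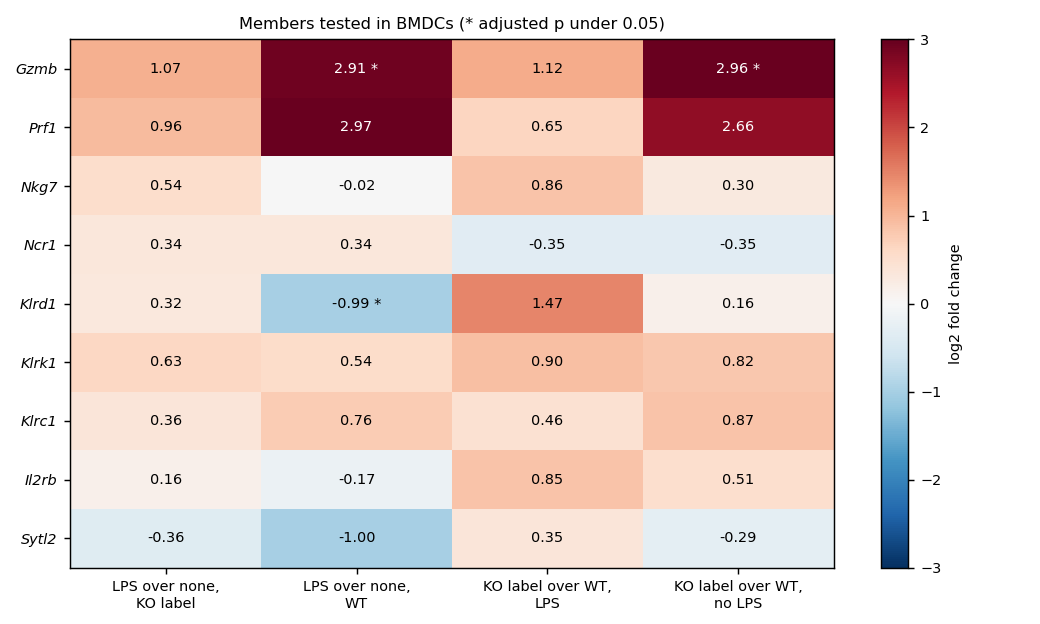
Log2 fold changes of the 9 tested genes in BMDCs, by gene (down) and comparison (across), with an asterisk at an adjusted p under 0.05. Gzmb stands out by 2.91 (LPS, WT) and 2.96 (label, without LPS), while the Prf1 values of 2.97 and 2.66 rest on 2 counts in the unstimulated WT libraries. Klrd1 at -0.99 (LPS, WT) has an asterisk, and Sytl2 lies as low there (-0.996) without one.

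The difference between the LPS effects of the 2 genotype labels was tested as an interaction, which 585 genes (4.48%) passed, 511 of them (3.91%) with a value below 0. This count rests on single libraries: 57 genes passed below 0 and 1 above without LPS knockout replicate 1, 135 and 2 without LPS WT replicate 1, and 188 and 7 without unstimulated knockout replicate 1. It was 212 and 10 without unstimulated WT replicate 2, 256 and 18 without LPS WT replicate 2, and 824 and 252 without unstimulated knockout replicate 2. It passed for 0 of the 9 genes with edgeR and limma-voom and for 1 with DESeq2, and 2 had an unadjusted p under 0.05, as had 21.3% of all genes. Klrd1 had an interaction of 1.31 (SE 0.38, adjusted p = 0.0913), which passed with DESeq2, without the filter on low counts and without LPS knockout replicate 2. Gzmb had one of -1.84 (SE 0.65, adjusted p = 0.144). Across the 4 BMDC groups Gzmb averaged 7.40 ± 0.219 CPM with LPS and the knockout label, 3.53 ± 1.36 without LPS and with the label, 3.41 ± 1.64 with LPS in WT and 0.447 ± 0.163 without LPS in WT. The middle pair did not differ beyond its spread.

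Genes whose pattern lay closest to a member were ranked by the root mean square difference of centred log2(CPM + 1), among tested genes with a mean of at least 1 CPM. Gm, Rik and pseudogene symbols were left out of the ranking, and some may lie closer. The totals of genes given below still include such symbols. For Gzmb over the 8 BMDC libraries these were Gzmc, S1pr3, Plekhs1, Egfr and Pmvk of 11821 genes, at differences of 0.16 (Gzmc) to 0.26 (Pmvk) on the log2 scale. Gzmc had 126 and 144 counts with LPS and the knockout label, 110 and 68 without LPS and with the label, 54 and 71 with LPS in WT and 15 and 16 without LPS in WT. For Prf1 over all 12 libraries they were Nkg7, Rgs16, Sh2d2a, Col3a1 and Gzmb of 12157 genes, for Il2rb Gimap3, Thy1, Zap70, Lck and Gimap4, and for Ncr1 Tie1, Klra1, Pear1, Camk2n1 and Samd3. Over 12 libraries this measure is set mostly by the contrast between the tumoral and BMDC tables.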

How the data were processed

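Total RNA of 12 libraries was made into Illumina TruSeq libraries, per the labels' protocols, whose extraction text speaks of retinas. The values the authors deposited are raw counts per gene symbol in 2 tables. Per the submitters' processing notes, fastp 0.12.4, HISAT2 2.2.1, featureCounts 2.0.1 and mm10 were used. The sources used here give no annotation, strand setting or treatment of multi-mapping reads. All columns were mapped by name, and 0 were left over.

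Each table was fitted on its own with edgeR 4.0.16 (R 4.3.3): filterByExpr (minimum count 10), TMM, robust glmQLFit and glmQLFTest with a mean per group, and Benjamini-Hochberg adjustment over all 13040 (tumoral) or 13072 (BMDC) genes tested. Calls are those with an adjusted p under 0.05. DESeq2 1.42.0 and limma 3.58.1 (voom) were alternatives, beside other scalings, other filters, a replicate block and leaving out each library. The steps were checked on simulated counts. CPM use TMM-scaled library sizes. Intervals and limits of 3 counts cover counting error only.

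The 10 genes and the lists were chosen with earlier results of these data known. All 10 are named, and of each list, per comparison, the 3 genes with the smallest p, or all called ones if 5 or fewer. Exon lengths and positions are from GENCODE.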

Additional observations from a re-analysis of the deposited data

Results flagged for a closer look

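In BMDCs the LPS effect differed between the genotype labels beyond an adjusted p of 0.05 (edgeR interaction) for 9 genes of the pathway lists and for 0 of the 9 members tested. In every case the log2 difference, knockout label minus WT, was below 0, as it was for 511 of the 585 genes that passed. Those 585 were 4.48% of all genes tested. The difference was -2.19 for Il2ra and -0.81 for Jak3 in the IL-2 and IL-15 system (8 tested). It was -1.38 for Nfil3, -1.0 for Runx3 and -0.96 for Prdm1 among the transcription factors (6 tested). Among the ligands of NK receptors (8 tested) it was -1.48 for Nectin2, -1.07 for Pvr and -0.85 for H2-T23. It was -1.10 for Srgn among the granule contents (6 tested). Of 5 serpins, 10 granule release genes and 10 other NK receptors and adaptors, 0 passed. The 585 depend on single libraries, with 57 below 0 and 1 above without LPS knockout replicate 1.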

How the results depend on the processing

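Late against early tumoral DCs, 1 member was called: 0 with relative log expression scaling, 2 with upper-quartile scaling, 8 with DESeq2, 9 with no filter, and 0 to 9 when a library was left out. With the replicate number as a block it was 7, and in BMDCs the block gave 2 for the knockout label without LPS and changed no other count of members called. The labels do not pair the replicates, and deviations of same-numbered libraries correlated at -0.04 (tumoral) and between -0.20 and 0.28 (BMDC). The knockout label without LPS gave 2 with DESeq2 and 1 to 2 when a library was left out. With LPS the label gave 1 with DESeq2 and 1 with no filter (0 to 1 when a library was left out), and so did the interaction (0 to 1). LPS in WT gave 1 to 2 when a library was left out.

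Directions reversed for results that had not passed. The Ncr1 interaction (-0.0048) was 0.0031 with relative log expression scaling, 0.13 with library size alone, 0.018 with upper-quartile scaling and 0.0068 with DESeq2. Nkg7 under LPS in WT (-0.02) was 0.014 with limma-voom, and the Klrk1 interaction (0.09) was -0.035 with limma-voom and -0.010 with the block. Leaving out a library gave, for LPS in WT, -0.33 to 0.37 (Nkg7), -0.26 to 1.39 (Ncr1) and -0.54 to 0.33 (Il2rb). For LPS with the knockout label it gave -0.82 to 0.30 (Sytl2), -0.052 to 0.95 (Nkg7), -0.021 to 0.63 (Ncr1), -0.16 to 0.68 (Klrd1), -0.089 to 0.99 (Klrc1) and -0.025 to 0.38 (Il2rb). For the label without LPS it gave -0.95 to 0.18 (Sytl2), -0.016 to 0.69 (Nkg7) and -0.95 to 0.70 (Ncr1). For the label with LPS it gave -0.36 to 1.78 (Sytl2), -0.16 to 2.62 (Prf1) and -0.71 to 0.10 (Ncr1). For the interaction it gave -0.080 to 2.06 (Sytl2), -0.032 to 0.97 (Nkg7), -1.05 to 0.60 (Ncr1), -0.65 to 0.57 (Klrk1), -1.44 to 0.24 (Klrc1) and -0.16 to 0.70 (Il2rb). The cause was not tested.

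Of 717 settings for single genes, 625 kept direction and side, 47 newly passed, 7 no longer passed and 38 changed sign. Where 1 library of a group was left, it was assumed to vary like the others. Library size alone moved the median of all genes to -0.23 for LPS in WT (1689 higher and 3728 lower, against 2609 and 2301), to -0.11 for the label without LPS (1282 and 1301, against 1575 and 782) and to 0.12 for the interaction. With 2 libraries a group and under 40 counts for most members in BMDCs, small differences were not detectable.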
